A study of Rattus norvegicus with 12 samples.

Results

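CC chemokines are small secreted proteins that draw leukocytes into tissue, and their transcripts were examined in left ventricle 1 d after myocardial infarction (MI) in rats. The genes were chosen by name as Ccl2, Ccl3, Ccl4, Ccl5, Ccl7, Ccl20, Ccl22, Ccr1 and Ccr2. A row under the symbol was used for 8 of the 9, among the 34599 loci of the count table; Ccr2 was not analysed here. All 8 passed the filter on low counts and were tested among 15101 genes.

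RNA-seq libraries came from 12 male Sprague Dawley rats, of which 4 were Sham, 4 MI and 4 iCarP+/Light+ animals. Sham rats underwent thoracotomy with the left anterior descending (LAD) coronary artery not tied. MI rats had the LAD ligated and no patch. iCarP+/Light+ rats had the LAD ligated, Chlorella (a photosynthetic microalga) injected into the infarcted ventricle, and a patch holding a tapered optical fiber (iCarP) glued to the epicardium with a hydrogel and lit. The iCarP+/Light+ group thus differed from the MI group in alga, patch, adhesive and light together, whose effects cannot be told apart here, and RNA-seq of patched rats without light was not analysed here. Each library was bulk tissue of the infarct region of 1 rat, or of the ventricle in Sham rats. Rats are named by the number in their label, and values are listed in the order of rats 1, 2, 3 and 5 for Sham, 1, 3, 4 and 5 for MI, and 1, 2, 4 and 5 for iCarP+/Light+.

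CC chemokines carry adjacent cysteines near the amino terminus and act through G protein-coupled receptors on leukocytes. Ccl2 and Ccl7 bind the receptor CCR2 and mobilise inflammatory monocytes, which enter the infarcted heart early after ischemia. Ccl3, Ccl5 and Ccl7 bind CCR1, a receptor of monocytes, macrophages and rodent neutrophils. Ccl20 is the ligand of CCR6, and Ccl22 is a ligand of CCR4, a receptor of T helper cells.

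The table placed 5 of the ligands on chromosome 10 of its own annotation (rn6 by the submitters' processing notes). Ccl2 lay at 69412017 to 69413870 and Ccl7 at 69423086 to 69424979, both on the plus strand. Ccl5 lay at 70739800 to 70744315 on the minus strand, Ccl3 at 70869513 to 70871066 on the minus strand and Ccl4 at 70884531 to 70886355 on the plus strand. Ccl20 was listed on chromosome 9 at 88918433 to 88921001 (plus), Ccl22 on chromosome 19 at 10674189 to 10681145 (minus) and Ccr1 on chromosome 8 at 132996649 to 133002201 (minus). An antisense locus, AC114233.1, overlaps Ccl3 at 70870239 to 70871017 on the plus strand. It had 0 to 2 counts in Sham rats, 6 to 20 in MI rats and 253 to 409 with iCarP+/Light+, and since the strand setting of the counting is not given in the sources used here, reads of the pair cannot be told apart.

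Upstream sequence was taken from a set of RefSeq promoters (build GRCr8), in which 4 of the 8 genes were matched by symbol, Ccl7, Ccl20, Ccl22 and Ccr1. The other members were not matched in the set used here, which says nothing of RefSeq as a whole. The 250 bases before each transcription start are shown, because they set a gene called higher in both infarct comparisons (Ccr1) beside genes called only against Sham (Ccl7, Ccl20) and a gene not called in any (Ccl22). Ccl7 is at chr10:67513845-67514094 (plus strand), Ccl20 at chr9:91836909-91837158 (plus), Ccl22 at chr19:10270360-10270609 (minus) and Ccr1 at chr8:132439267-132439516 (minus). Each is written 5′ to 3′ on the gene's strand, and capitals mark matches on either strand to GGGNNNNNCC (the outline of an NF-κB site), TGANTCA (AP-1) or TATAAA (the TATA box), where N is any base.
Ccl7: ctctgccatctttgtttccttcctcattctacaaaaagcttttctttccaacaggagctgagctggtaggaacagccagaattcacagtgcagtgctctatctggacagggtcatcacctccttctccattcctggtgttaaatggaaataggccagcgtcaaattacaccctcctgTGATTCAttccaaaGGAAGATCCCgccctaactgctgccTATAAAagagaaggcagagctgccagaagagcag
Ccl20: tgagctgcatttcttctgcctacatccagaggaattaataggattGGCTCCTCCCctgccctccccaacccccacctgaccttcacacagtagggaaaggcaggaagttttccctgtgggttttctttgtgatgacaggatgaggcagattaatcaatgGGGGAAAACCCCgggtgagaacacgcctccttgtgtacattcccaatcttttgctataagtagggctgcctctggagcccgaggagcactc
Ccl22: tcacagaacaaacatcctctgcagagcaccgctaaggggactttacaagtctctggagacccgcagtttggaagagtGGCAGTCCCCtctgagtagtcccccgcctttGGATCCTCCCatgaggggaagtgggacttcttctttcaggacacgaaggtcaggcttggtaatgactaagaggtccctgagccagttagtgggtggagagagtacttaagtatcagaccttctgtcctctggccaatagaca
Ccr1: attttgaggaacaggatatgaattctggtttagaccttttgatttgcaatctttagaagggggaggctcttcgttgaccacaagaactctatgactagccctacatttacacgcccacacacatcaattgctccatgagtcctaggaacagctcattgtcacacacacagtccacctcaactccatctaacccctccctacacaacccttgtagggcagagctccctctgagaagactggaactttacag
The Ccl7 sequence held each of the motifs without overlap, TGANTCA at -73 to -67, GGGNNNNNCC at -59 to -50 and TATAAA at -34 to -29 from the start. Ccl20 held GGGNNNNNCC at -205 to -196 and in 3 overlapping positions between -91 and -80. Ccl22 held it at -173 to -164 and at -142 to -133, and Ccr1 held no match. Of 33469 RefSeq promoters of the same length, 42.3% held GGGNNNNNCC, 6.34% held TGANTCA and 12.9% held TATAAA. A match is a description of these letters and not a measured binding site.

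Total counts were 14064414 to 17136958 per rat. Levels are given as CPM, counts relative to the library total after TMM scaling, in which 3 counts correspond to 0.144 to 0.228 CPM. Mitochondrial transcripts took 22.8 to 28.9% of counts in Sham rats, 8.52 to 11.5% in MI rats and 7.14 to 14.2% with iCarP+/Light+. Among iCarP+/Light+ rats, rat 1 stood apart for several of the chemokine genes, and results that rest on it are given with and without it. Log2 fold changes come with their standard error (SE) and a p from edgeR's quasi-likelihood test, adjusted by Benjamini-Hochberg over all 15101 genes, with 0.05 as the threshold.

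Infarction was compared with Sham first. Of the 8 genes, 6 were higher in MI than in Sham rats by edgeR's quasi-likelihood test and 5 in limma-voom, which did not call Ccl20. Ccl20 was under the filter's level (10 counts in a library of median depth) in 4 of 4 Sham rats and Ccl3 in 1, so both passed the filter through the infarcted rats where they are high, and their counting among the 6 is a description. None was lower in edgeR, DESeq2 or limma-voom, or at an unadjusted p below 0.05 in edgeR, beside 33.6% of all genes called lower by the adjusted p. The genes that rose were the monocyte attractants Ccl2 and Ccl7, the macrophage inflammatory protein genes Ccl3 and Ccl4, the CCR6 ligand Ccl20 and the receptor Ccr1. Over all genes tested, 30.2% were called higher in this comparison. All MI rats exceeded all Sham rats for 5 of the 8 (Ccl2, Ccl3, Ccl4, Ccl7 and Ccr1), against 27.6% of all genes. The median log2 fold change of the 8 was 3.99, beside -0.06 for all genes. In bulk tissue, fewer cells of a type and less RNA per cell cannot be told apart, nor can more cells and more RNA per cell.

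**Figure D1:**
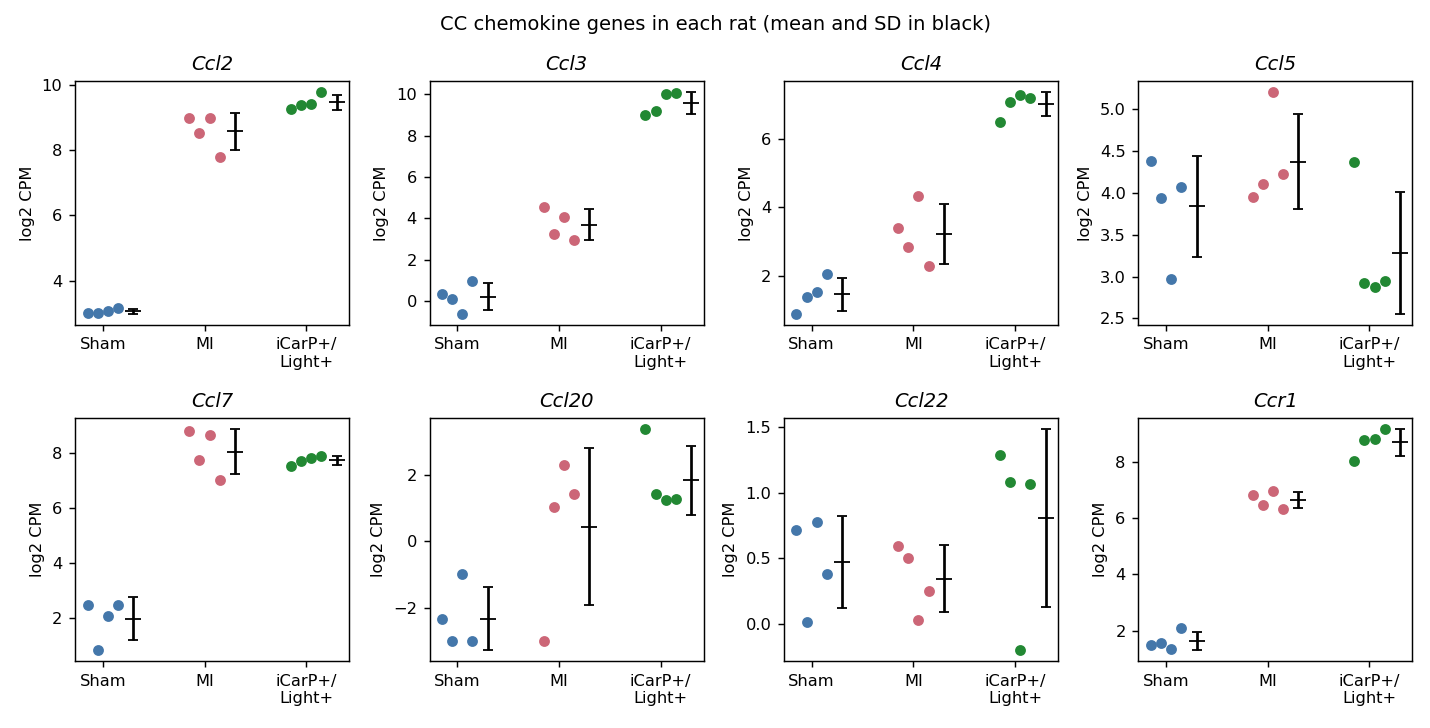
Log2 CPM (vertical axis, own scale in each panel) of the 8 genes in each of 12 rats; each point is a Sham, MI or iCarP+/Light+ rat, and black bars are the group mean and SD. Ccl2, Ccl3, Ccl4 and Ccr1 climb from Sham to MI to iCarP+/Light+ without overlap, Ccl7 is high in both infarcted groups, and Ccl5 and Ccl22 overlap among groups.

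Ccl2, the main attractant of inflammatory monocytes, was close to constant in Sham rats, at 7.87, 7.98, 8.27 and 8.84 CPM. It was at 512, 369, 504 and 223 CPM in MI rats. It was at 615, 674, 684 and 878 CPM in iCarP+/Light+ rats. The 3 groups did not overlap, and the lowest MI rat (rat 5) was still far above every Sham rat. The group means were 8.24 ± 0.434, 402 ± 136 and 713 ± 115 CPM (SD, n = 4 each). MI exceeded Sham by a log2 fold change of 5.61 (SE 0.268, adjusted p = 2.576e-08 by edgeR's quasi-likelihood test), a 48.7-fold difference.

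iCarP+/Light+ exceeded MI in Ccl2 by a log2 fold change of 0.83 (SE 0.218, adjusted p = 0.0219 by edgeR's quasi-likelihood test). This smaller difference depended on single rats and on the scaling. It missed the threshold without MI rat 3 (0.79, adjusted p = 0.0601) and without iCarP+/Light+ rat 5 (0.63, adjusted p = 0.106). It also missed when only the 8 rats of both groups were fitted (0.79, adjusted p = 0.0852) or when libraries were scaled by total counts alone (0.56, adjusted p = 0.0543).

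Ccl7, which shares CCR2 with Ccl2, was at 5.42, 1.64, 4.10 and 5.45 CPM in Sham rats. It rose to 435, 214, 397 and 127 CPM in MI rats. It was at 182, 207, 223 and 234 CPM in iCarP+/Light+ rats. The MI rats spread widely, with rats 1 and 4 above and rat 5 below all iCarP+/Light+ rats. The rise from Sham to MI, a log2 fold change of 6.15 (SE 0.455, adjusted p = 2.436e-07, edgeR's quasi-likelihood test), was 70.7-fold. Between iCarP+/Light+ and MI the log2 difference was -0.47 (95% interval -1.24 to 0.29, adjusted p = 0.457, edgeR), which misses the threshold and spans 0.

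The pair of CCR2 ligands was compared directly through the ratio of their counts in each rat, which no scaling of libraries touches. The mean log2 ratio of Ccl2 to Ccl7 was 1.12 ± 0.774 in Sham rats, 0.54 ± 0.297 in MI rats and 1.75 ± 0.123 with iCarP+/Light+ (SD, n = 4 each). Ccl2 was thus more abundant relative to Ccl7 in iCarP+/Light+ than with MI alone, by 1.20 on the log2 scale (two-sided exact permutation p = 0.0286, adjusted p = 0.0429 over 15 ratio tests). The value 0.0286 is the smallest that 4 rats against 4 allow. MI and Sham differed by -0.57 (exact permutation p = 0.2, adjusted p = 0.214). iCarP+/Light+ and Sham differed by 0.63 (exact permutation p = 0.143, adjusted p = 0.165), and by 1.005 (adjusted p = 0.0429) without Sham rat 2.

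Ccl3 (MIP-1α), a ligand of CCR1, was at 1.16, 0.954, 0.531 and 1.84 CPM in Sham rats. It was at 23.1, 9.49, 16.5 and 7.55 CPM in MI rats. It was at 517, 584, 1021 and 1068 CPM in iCarP+/Light+ rats. The groups were far apart, and iCarP+/Light+ rats 4 and 5 were higher than rats 1 and 2. MI exceeded Sham by a log2 fold change of 3.65 (SE 0.455, adjusted p = 1.417e-05, edgeR's quasi-likelihood test). iCarP+/Light+ exceeded MI by 5.81 (SE 0.427, adjusted p = 3.481e-06, edgeR), a 56.2-fold difference and the largest among the 8 genes in that comparison.

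Ccl4 (MIP-1β), a neighbour of Ccl3 that attracts macrophages, NK cells and T cells, was at 1.73, 2.45, 2.73 and 4.05 CPM in Sham rats. It was at 10.3, 7.01, 20.0 and 4.73 CPM in MI rats. It was at 90.7, 134, 157 and 146 CPM in iCarP+/Light+ rats. The groups did not overlap, though MI rat 5 was close to Sham rat 5. The log2 fold change of MI over Sham was 1.94 (SE 0.411, adjusted p = 0.00109, edgeR's quasi-likelihood test). That of iCarP+/Light+ over MI was 3.65 (SE 0.386, adjusted p = 4.520e-05, edgeR), a 12.6-fold difference.

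Ccl3 and Ccl4 rose together but not in proportion. The mean log2 count ratio of Ccl3 to Ccl4 was -1.29 ± 0.687 in Sham rats, 0.50 ± 0.594 in MI rats and 2.55 ± 0.321 with iCarP+/Light+ (SD, n = 4 each). The ratio was higher with iCarP+/Light+ than with MI alone by 2.06 on the log2 scale (exact permutation p = 0.0286, adjusted p = 0.0429). The MI value exceeded the Sham value by 1.79 (exact permutation p = 0.0286, adjusted p = 0.0429), and the adjusted p rose to 0.0714 without MI rat 1 or Sham rat 2 and to 0.0779 without Sham rat 3. All MI ratios lay above all Sham ratios (lowest -0.27 against highest -0.56), so leaving out a rat brought no overlap. The permutation p of 3 rats against 4 moves in coarse steps, so these rises do not show dependence on those rats.

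Ccl5 (RANTES), a ligand of CCR1 and CCR3 made by T and NK cells among others, was at 20.7, 15.2, 7.74 and 16.7 CPM in Sham rats. It was at 15.4, 17.1, 36.8 and 18.5 CPM in MI rats. It was at 20.5, 7.49, 7.24 and 7.59 CPM in iCarP+/Light+ rats. The groups overlapped, with rat 1 far above the other iCarP+/Light+ rats, which lay below every Sham and every MI rat. MI and Sham differed by a log2 value of 0.54 (95% interval -0.32 to 1.40, adjusted p = 0.252, edgeR), and with total counts alone by 1.10 (adjusted p = 0.0262). iCarP+/Light+ and MI differed by -1.03 (SE 0.403, adjusted p = 0.12, edgeR's quasi-likelihood test).

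The Ccl5 result turned on that rat. Without iCarP+/Light+ rat 1 the difference from MI was -1.56 (adjusted p = 0.00909, edgeR) and the difference from Sham -1.02 (adjusted p = 0.0234), against -0.49 (adjusted p = 0.301) with it. With each rat left out in turn, the difference from MI ranged from -1.56 to -0.67 and its adjusted p in edgeR from 0.00909 to 0.329, so it also weakened. The difference from MI also passed the threshold in DESeq2 (-1.09, adjusted p = 0.0463) and with total counts alone (-1.27, adjusted p = 0.0362). Among 13 T and NK cell markers tested, 1 was higher and 3 were lower with iCarP+/Light+ than with MI alone in edgeR, beside 11.6% and 2.01% of all genes. The number lower was 5 in DESeq2, 9 with total counts alone and 8 at an unadjusted p below 0.05 in edgeR, where DESeq2 called 5.05% and total counts alone 18.1% of all genes lower. Cd8a, a chain of the CD8 co-receptor, was at 127 CPM in MI and 35.7 CPM in iCarP+/Light+ rats (group means; log2 fold change -1.83, adjusted p = 0.00939, edgeR). Cd8b, its partner chain, changed by -1.72 (adjusted p = 0.00268), and the NK receptor gene Ncr1 by 2.17 (adjusted p = 0.0159), a call lost without iCarP+/Light+ rat 5 or when at least 10 counts were required in every rat. The summed level of the 13 markers in the table was 82.1 to 116 CPM in Sham rats, 162 to 297 in MI rats and 87.2 to 124 with iCarP+/Light+. Cd8a alone was at group means of 2.87, 127 and 35.7 CPM, so the sum moved largely with this gene and is not a level shared by the list. The part of these markers in the Ccl5 values was not tested.

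The ratio of Ccl2 to Ccl5 set an inducible monocyte attractant against a ligand already present in Sham tissue. Its mean log2 value was -0.78 ± 0.625 in Sham rats, 4.21 ± 0.67 in MI rats and 6.19 ± 0.875 with iCarP+/Light+ (SD, n = 4 each). MI exceeded Sham by 4.99 (exact permutation p = 0.0286, adjusted p = 0.0429). The difference of 1.98 between iCarP+/Light+ and MI missed the threshold (exact permutation p = 0.0571, adjusted p = 0.0779) and passed it without iCarP+/Light+ rat 1 (2.42, adjusted p = 0.039, exact permutation).

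Ccl20, the CCR6 ligand, was at the limit of detection in Sham rats, with counts of 1, 0, 5 and 0. MI rats had counts of 0, 36, 87 and 49. iCarP+/Light+ rats had counts of 167, 43, 33 and 33, or 10.4, 2.60, 2.23 and 2.32 CPM. MI rat 1 therefore overlapped the Sham rats, and iCarP+/Light+ rat 1 exceeded the other 11 rats. The fitted log2 fold change of MI over Sham was 4.33 (SE 1.27, adjusted p = 0.00915, edgeR's quasi-likelihood test), a value that at such counts depends on the prior count. It became 3.70 without MI rat 4 and 6.23 without Sham rat 3, and limma-voom gave 3.22 (adjusted p = 0.212). iCarP+/Light+ and MI differed by 0.91 (95% interval -0.99 to 2.81, adjusted p = 0.58, edgeR), by 0.03 (adjusted p = 0.991) without iCarP+/Light+ rat 1, by 1.54 (adjusted p = 0.382) without MI rat 4 and by 2.12 (adjusted p = 0.28) in limma-voom.

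Ccl22, a CCR4 ligand of macrophages and dendritic cells, was low throughout, at 1.52, 0.886, 1.59 and 1.18 CPM in Sham rats. It was at 1.39, 1.29, 0.894 and 1.06 CPM in MI rats. It was at 2.32, 1.99, 0.745 and 1.97 CPM in iCarP+/Light+ rats. These values, from 11 to 37 counts, overlapped among all groups, with iCarP+/Light+ rat 4 the lowest of all. MI and Sham differed by -0.15 on the log2 scale (95% interval -0.93 to 0.63, adjusted p = 0.729, edgeR). iCarP+/Light+ and MI differed by 0.60 (95% interval -0.17 to 1.36, adjusted p = 0.329, edgeR), which leaves room for a change of either sign.

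Ccr1, the receptor of Ccl3, Ccl5 and Ccl7, was at 2.67, 2.80, 2.43 and 4.12 CPM in Sham rats. It was at 115, 89.9, 124 and 80.6 CPM in MI rats. It was at 262, 445, 456 and 580 CPM in iCarP+/Light+ rats. The groups did not overlap, and rat 1 was the lowest of the iCarP+/Light+ rats. The log2 fold change of MI over Sham was 5.09 (SE 0.281, adjusted p = 5.174e-08, edgeR's quasi-likelihood test), or 34.1-fold. iCarP+/Light+ exceeded MI by 2.09 (SE 0.233, adjusted p = 6.560e-05, edgeR), or 4.25-fold.

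Ligand and receptor were set side by side through the count ratio of Ccl3 to Ccr1, whose mean log2 value was -1.46 ± 0.424 in Sham rats, -2.97 ± 0.479 in MI rats and 0.85 ± 0.329 with iCarP+/Light+ (SD, n = 4 each). The receptor thus rose more than the ligand from Sham to MI, by a log2 difference of -1.51 (exact permutation p = 0.0286, adjusted p = 0.0429). From MI to iCarP+/Light+ the ligand rose more than the receptor, by 3.82 (exact permutation p = 0.0286, adjusted p = 0.0429). The difference between MI and Sham missed the threshold without MI rat 5 (adjusted p = 0.0857) and without Sham rat 1 or Sham rat 5 (adjusted p = 0.0779, exact permutation). All MI ratios lay below all Sham ratios (highest -2.32 against lowest -2.04), so here too no overlap arose and the p moves in coarse steps. The ratio of Ccl20 to Ccl22 differed between iCarP+/Light+ and Sham rats by 4.37 (exact permutation p = 0.0286, adjusted p = 0.0429), or by 4.98 with 0.5 instead of 1 added to each count, and not past the threshold between the other pairs of groups, although MI over Sham passed it without MI rat 1 (4.70, adjusted p = 0.0429). In all, 10 of the 15 ratio tests passed the threshold, 1 of them the Ccl20 to Ccl22 ratio, which rests on 0 to 5 counts of Ccl20 in Sham rats. All 10 had the smallest possible p of 0.0286 and share the adjusted p of 0.0429, which depends on how many of the tests reached that p. The ratios also share genes and rats, so these are not 10 independent findings.

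The comparison of iCarP+/Light+ with MI rats asked whether the illuminated patch with alga was accompanied by other chemokine levels than infarction alone. By edgeR's quasi-likelihood test 4 of the 8 genes were higher in iCarP+/Light+ rats (Ccl2, Ccl3, Ccl4 and Ccr1), where 11.6% of all genes tested were. The count was 3 without MI rat 3, without iCarP+/Light+ rat 5, with total counts alone and with only these groups fitted, each time through the loss of Ccl2. The same 4 genes had every iCarP+/Light+ rat above every MI rat, as did 12.1% of all genes. By edgeR 0 of the 8 were lower (2.01% of all genes were), and 1, Ccl5, was lower at an unadjusted p below 0.05 and in DESeq2 but not in limma-voom. None had all iCarP+/Light+ rats below all MI rats (4.37% of all genes did). The median log2 fold change of the 8 was 0.87, beside 0.01 for all genes.

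**Figure D2:**
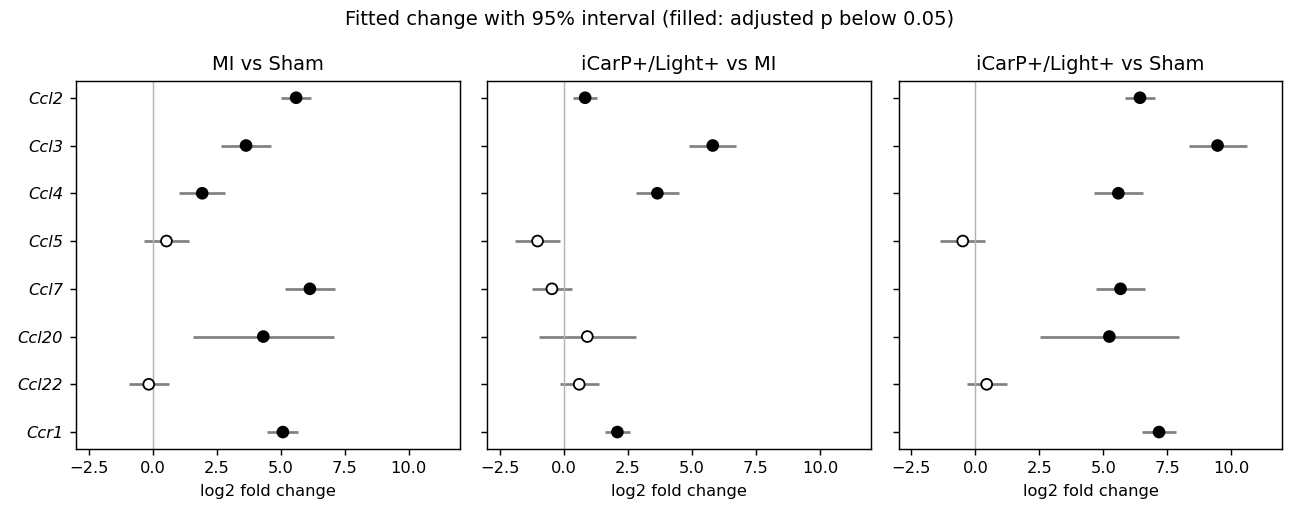
Fitted log2 fold change (horizontal axis) of the 8 genes in the 3 comparisons, with approximate 95% intervals derived from edgeR's F statistic as lines and filled points where the adjusted p is below 0.05. The MI over Sham panel has 6 filled points and the iCarP+/Light+ over MI panel 4, led by Ccl3 at 5.81 and Ccl4 at 3.65.

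Against Sham, iCarP+/Light+ rats were higher for 6 of the 8 genes by edgeR's quasi-likelihood test, with 33.5% of all genes called higher, and Ccl5 and Ccl22 were the genes not called. Here too Ccl20 and Ccl3 passed the filter through the infarcted rats, and the count was 4 with at least 10 counts required in every rat, which leaves both out. The log2 fold changes were 9.46 for Ccl3, 7.18 for Ccr1, 6.43 for Ccl2, 5.67 for Ccl7, 5.59 for Ccl4 and 5.24 for Ccl20. The Ccl20 value was 4.35 without iCarP+/Light+ rat 1 and 7.13 without Sham rat 3. The 3 comparisons share groups of rats, so their values are not independent of each other.

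The mixture of ligands also differed among the groups when levels were divided by gene length (CPM per kb). Summed over the 7 ligands, the level was 35.3 to 59.1 CPM per kb in Sham rats, 472 to 1200 in MI rats and 1829 to 2987 with iCarP+/Light+, without overlap. In Sham rats Ccl5 was the leading ligand with 55.0 ± 10.9% of that sum, followed by Ccl2 with 20.9 ± 5.19% (SD, n = 4). In MI rats Ccl2 made up 54.2 ± 4.14% and Ccl7 36.7 ± 5.02%, while Ccl3 made up 2.04 ± 0.383%. In iCarP+/Light+ rats Ccl3 made up 43.0 ± 6.55%, Ccl2 36.3 ± 4.50%, Ccl7 10.6 ± 1.35% and Ccl4 8.80 ± 1.24%. The share of Ccl3 was 1.67 to 2.54% in MI rats and 37.4 to 50.04% in iCarP+/Light+ rats, and that of Ccl7 was 31.8 to 42.6% and 9.21 to 11.9%, so neither overlapped between the groups.

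**Figure D3:**
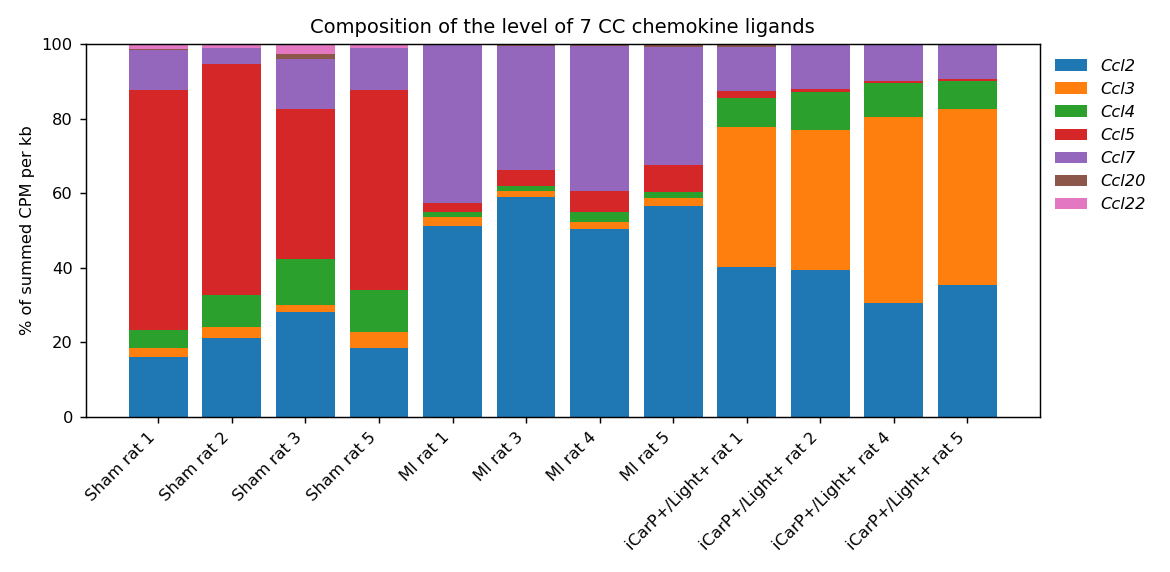
Share of each of 7 CC ligands in their summed CPM per kb (vertical axis, percent) in each of 12 rats, stacked to 100%. Ccl5 leads in Sham rats, Ccl2 with Ccl7 in MI rats, and Ccl3 with Ccl2 in iCarP+/Light+ rats.

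Some neighbours in the order of levels changed place between rats. In MI rats the mean of Ccl2, 481 CPM per kb, was above that of Ccl7, 345 CPM per kb, and although their ranges over rats overlapped (267 to 613 against 150 to 511), Ccl2 exceeded Ccl7 in 4 of 4 rats. Ccr1 followed at a mean of 55.6 and Ccl5 at 40.3 CPM per kb, with Ccr1 above Ccl5 in 3 of 4 rats. In iCarP+/Light+ rats Ccl3 (683 to 1410 CPM per kb) exceeded Ccl2 (736 to 1052) in 2 of 4 rats. Ccl7 (214 to 275) exceeded Ccl4 (144 to 249) in 4 of 4, while Ccr1 (142 to 314) was below Ccl7 in 3 of 4 rats and above Ccl4 in 2 of 4. Ccl5, Ccl20 and Ccl22 stood lowest there, at means of 19.6, 5.59 and 1.01 CPM per kb.

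Of the other CC ligands, 13 of the 14 listed were in the table as used and 8 passed the filter on low counts. By edgeR's quasi-likelihood test 5 of the 8 rose with MI and 1, the lymphoid chemokine Ccl19 (named after its values were seen), fell (median log2 fold change 2.54), beside 30.2% and 33.6% of all genes. Of the 5, Ccl9 reached the filter's level in 1 of 4 Sham rats and Ccl27 in 2, so both passed the filter through the infarcted rats where they are high. With at least 10 counts required in every rat 3 were called higher and 0 lower. The largest rises were those of Ccl12 (4.53, adjusted p = 5.261e-06), a monocyte attractant that binds CCR2, of Ccl27 (3.33, adjusted p = 1.329e-06), a CCR10 ligand with 9 to 21 counts in Sham rats, and of Ccl6 (2.84, adjusted p = 7.331e-06). Between iCarP+/Light+ and MI rats 2 of the 8 were higher, with a median of -0.06, where 11.6% of all genes were. They were the CCR1 ligands Ccl9 (log2 fold change 2.87, SE 0.447, adjusted p = 7.446e-04, edgeR) and Ccl6 (1.67, SE 0.311, adjusted p = 0.0028, edgeR). Ccl6 was at 128.6 to 295 CPM in MI rats and 365 to 1109 CPM with iCarP+/Light+, without overlap. Ccl12, like Ccl7, did not pass the threshold there (-0.24, adjusted p = 0.77, edgeR).

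Of the other CC and atypical receptors, 11 of 12 considered were in the table as used and 8 were tested. With MI 4 rose and 4 fell by edgeR's quasi-likelihood test (median log2 fold change 0.16), where 30.2% of all genes were called higher and 33.6% lower. Among the rises were those of Ccr3 (fitted log2 fold change 4.15, adjusted p = 7.896e-05) and Ccr9 (3.92, adjusted p = 5.381e-04). Sham rats had 0 to 4 counts of Ccr3 and 0 to 2 of Ccr9, so the size of these fitted values depends on the prior count. These 2 and Ccr1l1, which reached the filter's level in 1 of 4 Sham rats, make up 3 of the 4 rises and passed the filter through the infarcted rats where they are high. With at least 10 counts required in every rat, 1 receptor was called higher and 1 lower in this comparison. The 4 that fell, Ackr2, Ackr4, Ccr10 and Ccrl2, are named after their values were seen. Ccr10 reached the filter's level in 4 Sham rats but in 2 MI and 2 iCarP+/Light+ rats, so its place among the 4 is a description. Ackr2 and Ackr4 are scavenging receptors that remove chemokines without signalling through G proteins, with log2 fold changes of -3.01 and -2.96.

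From MI to iCarP+/Light+ 3 of the 8 receptors were higher by edgeR's quasi-likelihood test, with a median log2 fold change of 0.43, beside 11.6% of all genes called higher and 2.01% lower. None was lower in edgeR, DESeq2 or limma-voom, or at an unadjusted p below 0.05 in edgeR. Ccrl2, an atypical receptor that binds chemerin, was at a mean of 12.3 CPM in Sham rats, 5.29 in MI rats and 72.2 with iCarP+/Light+ (iCarP+/Light+ over MI 3.77, SE 0.278, adjusted p = 3.481e-06, edgeR). Ccr1l1, a close relative of Ccr1 whose reads may be shared with it, was higher by 2.21 (adjusted p = 0.0128), and the eosinophil receptor Ccr3 by 1.58 (adjusted p = 0.0259). Without iCarP+/Light+ rat 5, or with at least 10 counts required in every rat, 1 of the receptors was called higher.

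**Figure D4:**
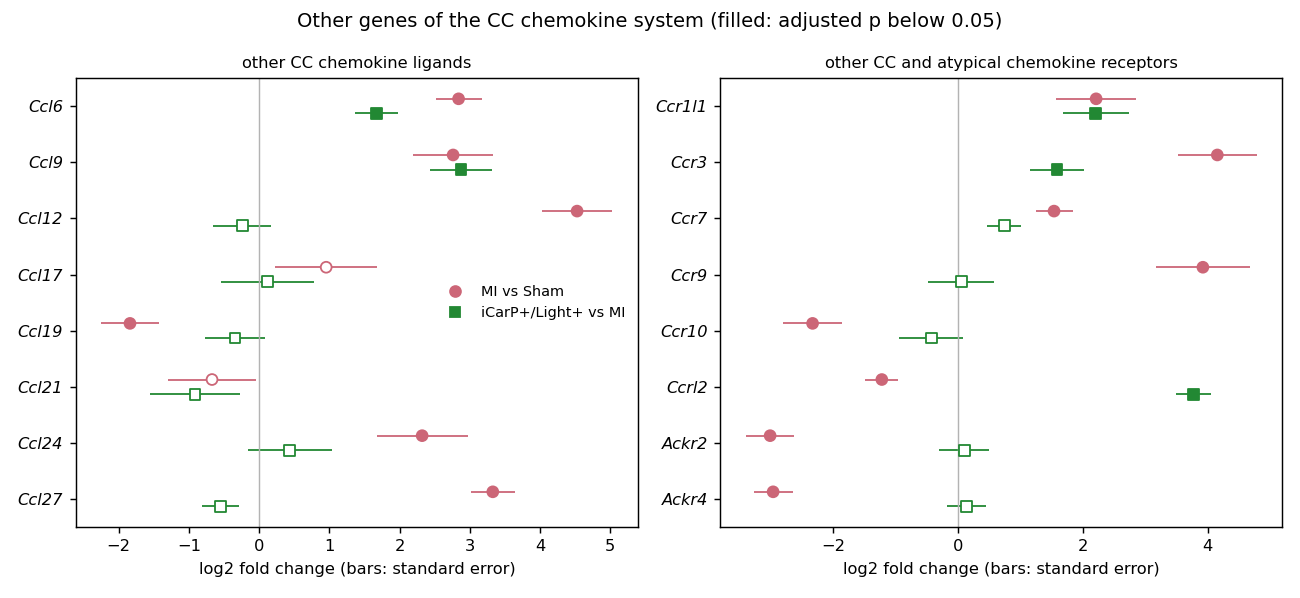
Log2 fold change (horizontal axis, bars are standard errors derived from edgeR's F statistic) of the 8 other CC ligands and the 8 other CC and atypical receptors tested, circles for MI over Sham and squares for iCarP+/Light+ over MI, filled where the adjusted p is below 0.05. Ccl6, Ccl9, Ccr1l1, Ccr3 and Ccrl2 have filled squares to the right of 0.

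Downstream of the receptors, 18 of 19 signalling genes considered were tested, from G protein subunits to kinases and Rac regulators. With MI 17 rose and 1 fell by edgeR's quasi-likelihood test (median log2 fold change 1.42), where 30.2% of all genes rose and 33.6% fell, with the Src-family kinase gene Fgr (3.72), the Rac exchange factor gene Vav1 (3.39) and the PI3K regulatory subunit gene Pik3r5 (3.14) furthest. From MI to iCarP+/Light+ 8 rose and 0 fell by edgeR (median 0.34), beside 11.6% and 2.01% of all genes. With total counts alone 6 were higher and 2 lower, beside 7.98% and 18.1% of all genes under that scaling. In DESeq2 1 was lower (5.05% of all genes), as at an unadjusted p below 0.05 in edgeR, and 0 in limma-voom. The largest rises were those of the GTPase Rac2 (2.18, adjusted p = 1.065e-04), the kinase Ptk2b (2.01, adjusted p = 5.037e-05) and Fgr (1.79, adjusted p = 5.260e-04), all by edgeR. Rac2 and Fgr are expressed chiefly in leukocytes.

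Markers of leukocytes moved in the same comparisons. Of 14 monocyte and macrophage markers tested, 12 rose with MI (median log2 fold change 2.60 by edgeR's fit; 30.2% of all genes rose), and from MI to iCarP+/Light+ 2 were higher and 4 lower (median -0.43), beside 11.6% and 2.01% of all genes. With total counts alone 1 was higher and 8 were lower, beside 7.98% and 18.1% of all genes under that scaling. The number higher was also 1 with only the groups compared, and without MI rat 3 or 5 or without iCarP+/Light+ rat 2, 4 or 5. Their summed level was 506 to 773 CPM in Sham rats, 4363 to 7427 in MI rats and 3538 to 5571 with iCarP+/Light+. The lysozyme gene Lyz2 rose by 4.27, the fractalkine receptor gene Cx3cr1 by 4.19 and Fcgr1a by 3.74 with MI on the log2 scale. Ms4a7 (-2.16, adjusted p = 0.0135) and Cx3cr1 (-1.77, adjusted p = 8.305e-04) were lower and Adgre1 (1.19, adjusted p = 0.00753) higher with iCarP+/Light+ than with MI alone by edgeR's quasi-likelihood test. Among MI rats, rats 1 and 4 had the 2 highest values of Ccl2, Ccl3, Ccl4, Ccl7, Ccr1 and the summed monocyte and macrophage level. These rats were also highest in the sums of T and NK cell markers (297 and 260 CPM) and of signalling genes (2610 and 2492 CPM). For neutrophil markers the highest were rats 4 and 5 (683 and 557 CPM). The match is thus not particular to monocytes, and its cause was not tested.

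Neutrophil markers differed more between the infarcted groups. Of 11 listed, 10 were tested, and 9 rose with MI (median log2 fold change 4.52) and all 10 were higher with iCarP+/Light+ than with MI alone (median 3.45) by edgeR's quasi-likelihood test, where 30.2% and 11.6% of all genes were called higher. Of the 10, 7 were under the filter's level in at least 1 Sham rat, and with at least 10 counts required in every rat 2 were called higher with MI and 3 with iCarP+/Light+ over MI. Camp reached the filter's level in 0 Sham, 3 MI and 4 iCarP+/Light+ rats. It thus passed the filter through the iCarP+/Light+ rats where it is high, and its place among the 10 and its rank are a description. Their summed level was 20.4 to 34.0 CPM in Sham rats, 387 to 683 in MI rats and 3078 to 8819 with iCarP+/Light+. Lcn2 (5.13, adjusted p = 3.481e-06), Mmp9 (4.93, adjusted p = 3.132e-06) and Camp (4.70, adjusted p = 7.521e-06), which encode granule proteins, had the largest rises over MI by edgeR. iCarP+/Light+ rat 1 had the lowest neutrophil sum of its group (3078 CPM) and also the lowest Ccl2, Ccl3, Ccl4, Ccl7 and Ccr1. The same rat had the highest cardiomyocyte sum (5545 CPM) and the highest mitochondrial share (14.2%) of its group, and what links these values was not tested. None of the neutrophil, monocyte and macrophage, or T and NK cell markers in the table was at 0 in all rats of a group. The part of neutrophils, monocytes and T cells in the chemokine differences was not tested.

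**Figure D5:**
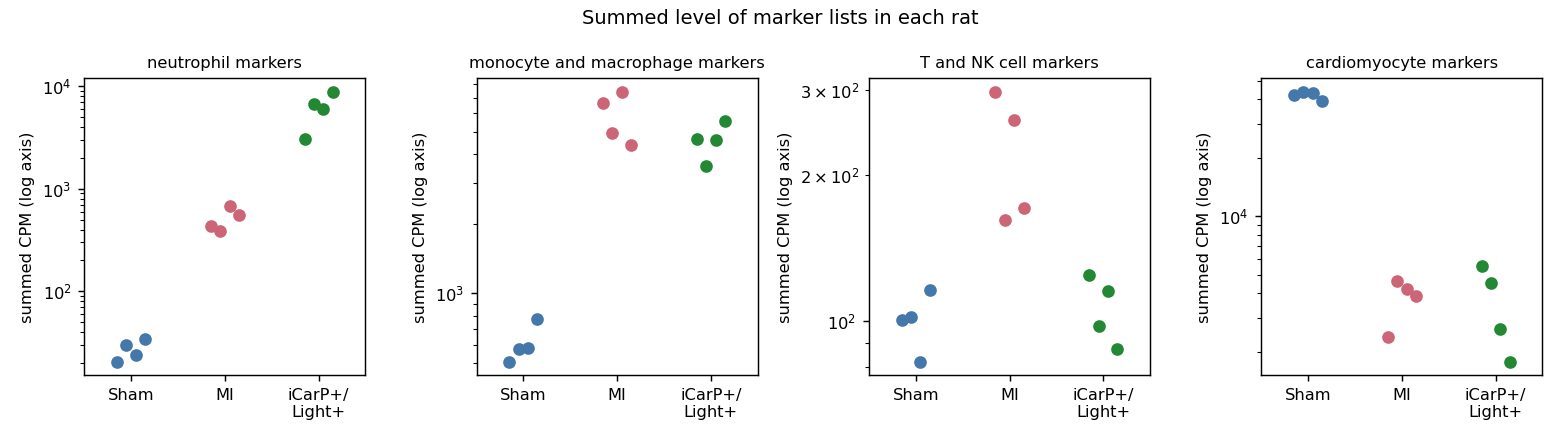
Summed CPM (vertical axis, log scale) of 4 marker lists in each of 12 rats; each point is a Sham, MI or iCarP+/Light+ rat. Neutrophil sums reach 387 to 683 in MI rats and 3078 to 8819 with iCarP+/Light+, whereas the monocyte and macrophage sums of these groups overlap.

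Cardiomyocyte transcripts, which define the labelled tissue, were present in every rat and made up 39370 to 43740 CPM over 8 markers in Sham rats. Their sum was 2386 to 4629 CPM in MI rats and 1775 to 5545 CPM with iCarP+/Light+. All 8 fell with MI by edgeR's quasi-likelihood test, as did 33.6% of all genes. Between iCarP+/Light+ and MI 0 of the 8 passed the threshold in edgeR, DESeq2 or limma-voom, and 0 had an unadjusted p below 0.05 in edgeR, beside 11.6% of all genes called higher and 2.01% lower by edgeR.

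The gene most like each chemokine gene over the 12 rats was found among 12914 protein-coding genes, as the smallest root mean square difference of centred log2 CPM. It was Il1b, the interleukin-1β gene, for Ccl3 (0.53 log2 units), at group means of 2.60, 42.9 and 1689 CPM in Sham, MI and iCarP+/Light+ rats. It was Clec7a, the gene of the β-glucan receptor dectin-1, for Ccr1 (0.28 log2 units), at 2.04, 90.6 and 292 CPM. For Ccl4 it was Trib3 (0.40), for Ccl2 Steap1 (0.40) and for Ccl7 the scavenger receptor gene Msr1 (0.59 log2 units). Steap1 was at group means of 0.018, 6.44 and 10.8 CPM, so in Sham rats its match to Ccl2 rests on values under the level of 3 counts (0.204 to 0.228 CPM there). Ccl5 was closest to Gzmm (0.34), the gene of a granzyme of lymphocytes, and Ccl22 to LOC103694903 (0.31). The nearest for Ccl20, the natriuretic peptide gene Nppa, was more distant at 1.15 log2 units. Such likeness describes these 12 rats, which fall into 3 groups, and has no test.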

How the data were processed

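RNA-seq was done on LV tissue of 12 rats (4 Sham, 4 MI, 4 iCarP+/Light+). The authors deposited a table of raw counts of reads per gene, without normalization; the submitters' processing notes name HISAT2, featureCounts and the build rn6, while parameters and strand setting are not given in the sources used here. All 12 count columns were used. The tests used edgeR 4.0.16 (R 4.3.3): filterByExpr (minimum count 10), TMM scaling, and a quasi-likelihood fit of the 3 group means over all rats, with Benjamini-Hochberg adjustment over 15101 genes. Scaling assumes that most genes do not differ, whereas 30.2% were called higher and 33.6% lower in MI over Sham. The p-values set a difference of groups against the spread between rats within groups, estimated over all 3 groups. Floors cover counting error only, as reads carried no molecular identifiers. Within groups, chi-square per gene between rats was 14.1 to 114 in 18 pairs, so no library was a copy of another. Log2 count ratios (1 added to each count) were compared by two-sided exact permutation tests over the 70 arrangements of 4 rats against 4; of 7 pairs planned, 5 were tested and those with Ccr2 were not. Same-numbered rats are different animals, and the fit had no replicate block. Named genes were the members, up to 3 genes per list and comparison with the largest absolute log2 fold change past the threshold, and the most similar gene of each member; others are said to be named after their values were seen. The lists hold 2 further genes that are not reported here. The members and lists were chosen with earlier results of these data known. Alternatives used DESeq2 1.42.0 and limma 3.58.1 (voom), other scalings and filters, only the groups compared, a replicate block, no mitochondrial genes, and each rat left out. The methods were tested on simulated counts with 200 of 15101 genes changed, on which DESeq2 called more unchanged genes than edgeR or limma-voom in each comparison. False calls were 3.9 to 6.5% of edgeR's calls there. Far more genes were called in the data, so the simulation does not rank the methods for them. Plots were drawn with matplotlib 3.10.9.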

Additional observations from a re-analysis of the deposited data

Results flagged for a closer look

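In 3 of 24 groups of 4 rats (8 genes in 3 groups) a rat lay far from the rest, its gap to the nearest rat taking more of the group's range than the critical value of 0.829. Gaps were taken on log2 CPM with a prior count of 2, and again on CPM as an alternative chosen after seeing the data. Chance gives about 1 such group in 20. Ccl5 in iCarP+/Light+ rat 1, at 20.5 CPM against 7.24 to 7.59 in the other rats, had a gap of 0.955 of the range on log2 CPM and 0.974 on CPM. Ccl20 in the same rat, at 10.4 CPM against 2.23 to 2.60, had a gap of 0.905 on log2 CPM and 0.956 on CPM. Ccl22 in iCarP+/Light+ rat 4, at 0.745 CPM against 1.97 to 2.32, had a gap of 0.851 on log2 CPM and 0.779 on CPM, which is under the critical value. On CPM the third group past it was instead Ccl5 in MI rats, where rat 4, at 36.8 CPM, had a gap of 0.851, against 0.784 on log2 CPM.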

How the results depend on the processing

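With each rat left out in turn, the number of the 8 genes called lower in iCarP+/Light+ than in MI was 0 to 1, and lower than in Sham 0 to 1, in both cases through Ccl5 without iCarP+/Light+ rat 1. It was 1 for the difference from MI with total counts alone and in DESeq2. The fits of the single genes gave 209 values under the other alternatives, of which 199 kept direction and side of the threshold, 5 lost it, 3 gained it and 2 changed sign. Those 2 were both Ccl22 in MI over Sham, at 0.43 with total counts alone and 0.022 with the replicate block. Of 288 values with a rat left out, 284 kept both. The ratio of Ccl20 to Ccl22 between iCarP+/Light+ and MI ranged from -0.33 to 2.09 with a rat left out, and was negative without MI rat 1; the cause was not tested. Requiring 10 counts in every rat leaves out Ccl3 and Ccl20, which then had no value, and tests fewer genes; between iCarP+/Light+ and MI it called 1 of the other CC ligands higher instead of 2.

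Same-numbered rats deviated with correlations of -0.15 to 0.07 and are different animals. A replicate block took Ccl2 in iCarP+/Light+ over MI to 0.86 (adjusted p = 0.101, edgeR) and Ccl20 in MI over Sham to 4.08 (adjusted p = 0.0602), and changed no other call of the 8 genes. It moved the calls over all genes between iCarP+/Light+ and MI from 1747 higher and 303 lower to 1157 and 141. In that comparison the block left 0 monocyte and macrophage markers, 0 T and NK cell markers and 1 of the other receptors called higher, instead of 2, 1 and 3. It also lost the fibroblast marker Dcn there, and left 1 instead of 3 dendritic cell markers lower in MI over Sham. Total counts alone gave 1205 higher and 2731 lower there and moved the median log2 fold change from 0.01 to -0.25; in MI over Sham they gave 7706 higher and 2777 lower instead of 4554 and 5080, with a median of 0.52, and in iCarP+/Light+ over Sham 6663 and 3640 instead of 5058 and 4987, with a median of 0.33. DESeq2 gave 763 lower genes between iCarP+/Light+ and MI and its size factors in edgeR gave 457. Ccl20 and Ccl22 had at most 167 and 37 counts in a rat, which limits what could be detected for them.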

Other observations

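Markers of other cell types were also counted. By edgeR's quasi-likelihood test, 4 of 7 dendritic cell markers rose and 3 fell with MI, beside 30.2% and 33.6% of all genes. Of the 4, Flt3 reached the filter's level in 3 of 4 Sham rats and Batf3 in 2, so both passed the filter through the infarcted rats, and with at least 10 counts required in every rat 3 markers rose and 2 fell. Of the 3 that fell, Xcr1 (named after its values were seen) reached that level in 4 Sham, 3 MI and 2 iCarP+/Light+ rats, so its fall is a description. The number that fell was 0 with total counts alone (18.4% of all genes were lower under that scaling), 2 in limma-voom, and 1 with DESeq2 size factors in edgeR, with no filter, or without MI rat 1 or 4, iCarP+/Light+ rat 5 or Sham rat 5. In iCarP+/Light+ compared with MI rats 1 of the 7, the integrin gene Itgax, was higher and 1, Cd83, lower (log2 fold changes 1.32 and -1.22), beside 11.6% and 2.01% of all genes, and the call of Cd83 was lost without MI rat 1 or iCarP+/Light+ rat 4. Of 5 fibroblast markers 4 fell with MI (33.6% of all genes did), and 1 was higher between the infarcted groups (11.6% of all genes were). That gene, the proteoglycan gene Dcn, was higher with iCarP+/Light+ than with MI alone by 0.73 (adjusted p = 0.0374, edgeR), a call lost with DESeq2 size factors in edgeR, with total counts alone, with only the groups compared, and without MI rat 1, 4 or 5, iCarP+/Light+ rat 2, 4 or 5, or Sham rat 1 or 3. All 5 endothelial markers fell with MI by edgeR, 4 in DESeq2 and 2 with total counts alone, beside 33.6% of all genes in edgeR and 18.4% with total counts alone. Between iCarP+/Light+ and MI 0 of the 5 passed the threshold in edgeR, DESeq2 or limma-voom, and 1 was higher at an unadjusted p below 0.05, beside 11.6% of all genes called higher and 2.01% lower by edgeR. Of 3 B cell markers 0 passed the threshold in MI over Sham in edgeR, DESeq2 or limma-voom, or at an unadjusted p below 0.05 in edgeR, beside 30.2% of all genes called higher and 33.6% lower by edgeR. Between iCarP+/Light+ and MI, where the shares were 11.6% and 2.01%, 0 passed it in the same tools, with 1 higher at an unadjusted p below 0.05, and 1 passed without iCarP+/Light+ rat 1.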
